A study of Mus musculus with 2 samples.

Results

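The Egr and Klf genes encode zinc finger transcription factors, and 9 of them were described here in costal-cartilage-derived stem cells (CDSCs): Egr1, Egr2, Egr3, Klf2, Klf4, Klf5, Klf6, Klf9 and Klf10. They were chosen by gene symbol, with earlier results of these data known. Each symbol matched 1 of the 21849 genes in the count tables, so 9 of 9 were measured. CDSCs are mouse rib cartilage cells sorted as negative for the blood cell protein CD45 and positive for the integrin CD51. There were 2 groups with 1 library each. The primary CDSCs were taken by collagenase digestion with agitation, and sorting, from the cartilage of C57BL/6J pups in their first week that were either CD45.1 or ZsGreen. The cultured CDSCs were cells of the same kind at passages P2-P3, grown on plastic in minimum essential medium with serum. The comparison asked whether the level of each factor differed between freshly isolated and expanded cells. It had 1 library per group, so the spread between replicates is unknown and no value below has a test.

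Egr factors are immediate early genes, which are switched on within minutes of growth factor signals, stretch or injury because the proteins that start their transcription are already present. Egr proteins bind GC-rich DNA through a set of C2H2 zinc fingers, and Nab1 and Nab2 are corepressors that bind to Egr proteins and limit them. Klf factors carry a related zinc finger domain and bind CACCC and GC boxes. Klf2 and Klf4 respond to fluid flow and act in quiescence, Klf9 to glucocorticoid, and Klf10 to transforming growth factor beta (TGFβ). In cartilage, Egr1 responds to loading and Klf2 and Klf4 act on matrix genes of chondrocytes.

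The cells were read with a 3′ single-cell method that counts captured transcripts by unique molecular identifiers (UMIs). A barcode was kept as a cell if it held 500 genes and 1000 UMIs or more, with mitochondrial UMIs making up no more than 10%. The primary library kept 11746 of 11896 barcodes with a median of 10026.5 UMIs, and the cultured library 5338 of 10798 barcodes with a median of 56864.5 UMIs. Among the kept cells the libraries shared 15 barcode sequences. Levels are given in CPM, the summed count of a gene scaled to a library total of 1000000 UMIs, and all intervals are exact 95% intervals that cover counting error only. Bone marrow is the labelled tissue of both libraries. In the primary library 14 of 14 chondrocyte markers had at least 17.8 CPM, with Col2a1 at 53268 CPM, while the 9 haematopoietic markers summed to 10.3 CPM and Ptprc, the gene of CD45, was at 0.620 CPM. In the cultured library 12 of the 14 chondrocyte markers were at least 4-fold lower, Col2a1 was at 490 CPM, and the haematopoietic markers summed to 18.8 CPM. The animals differed as well. ZsGreen transcripts were at 444 CPM in the primary library and had 0 UMIs in cultured cells, where 3 UMIs would be 0.00909 CPM. The Y-linked gene Uty was at 0.0802 CPM in primary and at 61.2 CPM in cultured cells. Culture, the fresh digestion and sorting of the primary cells, the line and sex of the animals, and the library run therefore cannot be told apart in any difference below.

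All 9 genes had a lower level in the cultured than in the primary library, where 35.5% of the 9115 genes tested did, tested meaning at least 10 CPM in either library. At least 4-fold lower levels were found for 4 of 9, namely Egr1, Egr2, Klf2 and Klf10, beside 5.73% of all tested genes. No member was at least 4-fold higher, beside 10.6% of the tested genes. The median log2 ratio of cultured over primary level was -1.81 for the 9 genes and 0.37 for all tested genes. Summed over the 9 genes, the level was 5544 CPM in primary and 1294 CPM in cultured cells.

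**Figure D1:**
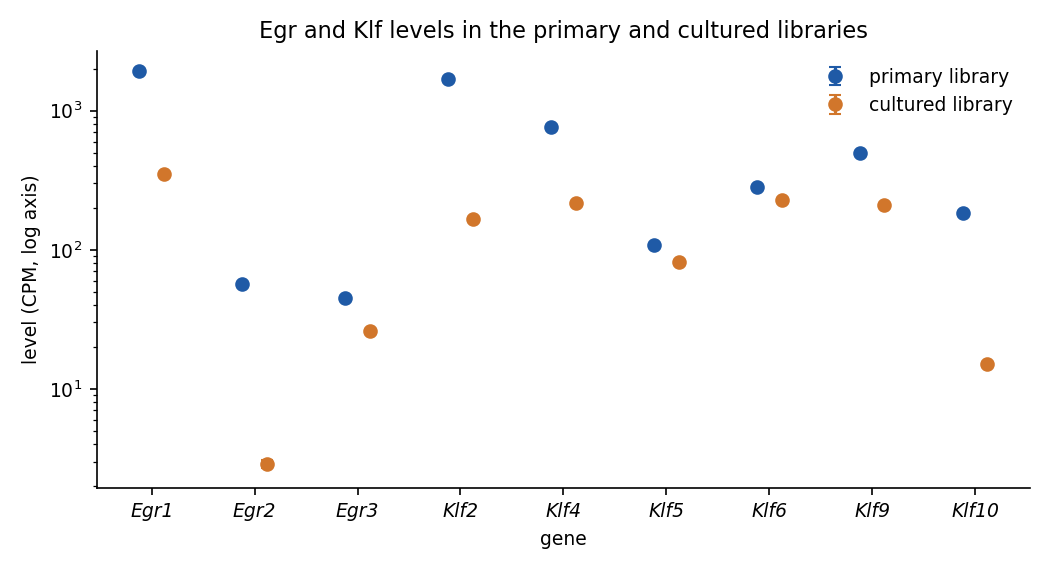
Level of each of the 9 genes (y axis, CPM, log axis) in the primary (blue) and cultured (orange) library, 1 point per library; bars are exact 95% Poisson intervals and are mostly smaller than the points. Each blue point lies above its orange neighbour, with the widest gap for Egr2 (56.4 against 2.88 CPM) and the narrowest for Klf6 (283 against 228 CPM).

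Egr1, the best known immediate early member, is on chromosome 18 (34859823 to 34864984, plus strand, GRCm38). It was at 1935 CPM in the primary library (interval 1928 to 1942) and at 351 CPM in the cultured one (349 to 353), a 5.51-fold lower level. On the log2 scale the ratio was -2.46 (interval -2.47 to -2.45), and 4.41% of the tested genes had a lower ratio. Egr1 was thus still well detected in culture although its ratio was among the lowest.

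Egr2, known for its role in myelinating Schwann cells and in tendon, was at 56.4 CPM in primary cells and at 2.88 CPM in cultured cells, from 7732 and 950 UMIs. Its log2 ratio of -4.29 (interval -4.39 to -4.19) was the lowest of the 9, and its level 19.6-fold lower. Egr3, a factor of lymphocytes, muscle spindles and neurons, differed far less. It was at 44.8 CPM in primary and at 26.0 CPM in cultured cells, with a log2 ratio of -0.78 (interval -0.83 to -0.74). The 3 Egr genes thus covered ratios from 1.72-fold to 19.6-fold lower.

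Egr2 lies on chromosome 10 (67535475 to 67542188, plus strand). The RefSeq promoter windows for GRCm38.p6, 250 bases before to 50 after a start site, held 5 windows for Egr2 and 1 each for Klf2, Klf4, Klf6 and Klf9. A CArG box, the site of serum response factor, is in 1.63% of 32851 such windows on either strand. It was in 4 of the 5 Egr2 windows, at 2 places, and in none of the other 4 genes' windows. Both are shown because serum response factor is the classical activator of Egr genes. The box is in capitals, with 10 bases on each side, on the plus strand of chr10:67537484-67537513 and chr10:67537787-67537816. Each box begins 72 bases before a RefSeq start site, and no GENCODE M21 exon overlaps the 2 stretches.
Egr2, first box: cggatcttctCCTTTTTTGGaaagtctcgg
Egr2, second box: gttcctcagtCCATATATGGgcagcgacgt

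Klf2, a factor of endothelial quiescence and T cell trafficking, is on chromosome 8 (72319033 to 72321656, plus strand). It was at 1680 CPM in primary cells and at 166 CPM in cultured cells. The level was 10.1-fold lower and the log2 ratio -3.34 (interval -3.36 to -3.33). Klf4, a reprogramming factor that also acts in epithelial barrier and smooth muscle, is on chromosome 4 (55527143 to 55532466, minus strand). It was at 758 CPM in primary and 216 CPM in cultured cells, 3.52-fold lower, with a log2 ratio of -1.81. Its ratio reached -2.01 with TMM scaling factors and -2.03 with DESeq2 size factors, which took the count of genes at least 4-fold lower from 4 to 5 of 9. Klf2 and Klf4 are close relatives, and Klf2 had the lower ratio of the pair.

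The letters GCGNGGGCG, a core site of Egr proteins, stand in 5.55% of the 32851 promoter windows on either strand. They were found 1 time in the Klf2 window and 2 times in the Klf4 window, and not in the windows of Egr2, Klf6 or Klf9. The stretches around them are printed with the matches in capitals, because the letters are those of an Egr site and the windows those of Klf genes. Klf2 is given on the plus strand of chr8:72318838-72318896 and Klf4 on the minus strand of chr4:55532636-55532711, where the matches read on the opposite strand. The matches begin 199 bases before the RefSeq start site of Klf2 and 211 and 194 bases before that of Klf4, outside GENCODE M21 exons. They share bases with GC boxes.
Klf2: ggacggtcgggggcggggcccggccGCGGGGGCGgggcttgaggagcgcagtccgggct
Klf4: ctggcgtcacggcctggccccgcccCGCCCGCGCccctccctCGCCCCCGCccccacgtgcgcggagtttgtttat
The GC box GGGCGG is in 35.7% of all windows and CACCC, a Klf site, in 57.5%. GGGCGG was found in the windows of Klf2, Klf4 and Klf6 and in 2 of the 5 of Egr2. The cyclic AMP response element TGACGTCA, in 1.79% of windows, was found in no member's window. A match is a run of letters and no measure of binding.

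Klf10, an early target of TGFβ on chromosome 15 (38291463 to 38300706, minus strand), was at 183 CPM in primary and 15.1 CPM in cultured cells. This 12.1-fold lower level, with a log2 ratio of -3.60 (interval -3.64 to -3.55), was second to that of Egr2. Klf9, a glucocorticoid and thyroid hormone responsive factor, was at 496 CPM in primary and 209 CPM in cultured cells, 2.38-fold lower, with a log2 ratio of -1.25. Klf10 and Klf9 thus stood on different sides of the 4-fold mark.

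The smallest differences were those of Klf5 and Klf6. Klf5, a factor of proliferating epithelium and smooth muscle, was at 107 CPM in primary and 81.2 CPM in cultured cells, with a log2 ratio of -0.40 (interval -0.43 to -0.37). Klf6, an injury-responsive factor, was at 283 CPM in primary and 228 CPM in cultured cells, with a log2 ratio of -0.31 (interval -0.33 to -0.30). For Klf5 23.0% and for Klf6 25.4% of the tested genes had a lower ratio, so neither stood far from the bulk of the genes.

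Related genes from lists of the same pathways were read beside the 9. Of the 3 Egr partners tested, Egr4 was at 24.8 CPM in primary and 0.224 CPM in cultured cells, a log2 ratio of -6.79, while the corepressors Nab1 and Nab2 had ratios of 0.69 and -0.25. Of the 7 other Klf genes tested 7 had a ratio below 0, with a median log2 ratio of -0.84, and 2 of the 7 were at least 4-fold lower. These were Klf12, at 170 CPM in primary and 16.7 CPM in cultured cells, and Klf15, a muscle and liver metabolic factor, at 15.3 and 2.96 CPM. Klf3, a repressor, was much alike in both libraries, at 97.8 and 96.7 CPM with a ratio of -0.02. The ubiquitous Sp factors, which share the Klf zinc finger fold, had a median of -0.05 over 4 tested genes, none of them past 4-fold. Among the 4 tested Sp genes the lowest ratio was that of Sp4, -0.45.

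The immediate early list, which holds AP-1 and other early genes but none of the 9, had 12 of 18 genes at least 4-fold lower, none at least 4-fold higher, and a median log2 ratio of -2.60. Fos, the partner of Jun in AP-1, was at 5378 CPM in primary and 308 CPM in cultured cells, a ratio of -4.12. Atf3, a stress-induced factor, had the lowest ratio of the list, -5.69, and Junb had -3.14. Fosl2 was the 1 gene of the list with a higher level in culture, with a ratio of 1.16. Of the 14 tested genes of the upstream list, factors and kinases that act on Egr and Klf genes, 0 were past 4-fold in either direction, with a median of 0.39. Serum response factor, Srf, had a ratio of -1.43, its partner Elk3 had -1.12, Elk4 had -0.33, and its cofactors Mrtfa and Mrtfb had 1.44 and 1.56. The glucocorticoid receptor Nr3c1 had a ratio of 0.86. At least 4-fold lower levels were found for 12 of 18 early genes and 0 of 14 tested upstream genes, beside 5.73% of all tested genes. A count of 0 of 14 is near that share, and the difference between the lists was not tested.

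Among the response lists, 2 of 8 glucocorticoid genes were at least 4-fold lower, with a median log2 ratio of -1.65. Tsc22d3, also called Gilz, was at 312 CPM in primary and 9.53 CPM in cultured cells, and Zbtb16 at 61.7 and 0.239 CPM, whereas Sgk1 had a ratio of 0.56. Of 8 early TGFβ and BMP response genes 2 were at least 4-fold lower, with a median of -1.24. Skil, a feedback inhibitor, had a ratio of -2.71 and Bhlhe40 -3.28. Of 10 feedback genes of ERK signalling 0 were at least 4-fold lower and 1 higher, Spry1 with 2.10, and the median was -0.72. Of 7 textbook Klf and Egr targets 1 was at least 4-fold lower and 2 higher, with a median of 1.32. The cell cycle inhibitor Cdkn1c had a ratio of -4.22, whereas cyclin D1, Ccnd1, had 4.99 and thrombomodulin, Thbd, 7.06. Thbd is a gene that Klf2 activates in endothelium, and its ratio was opposite in sign to that of Klf2.

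**Figure D2:**
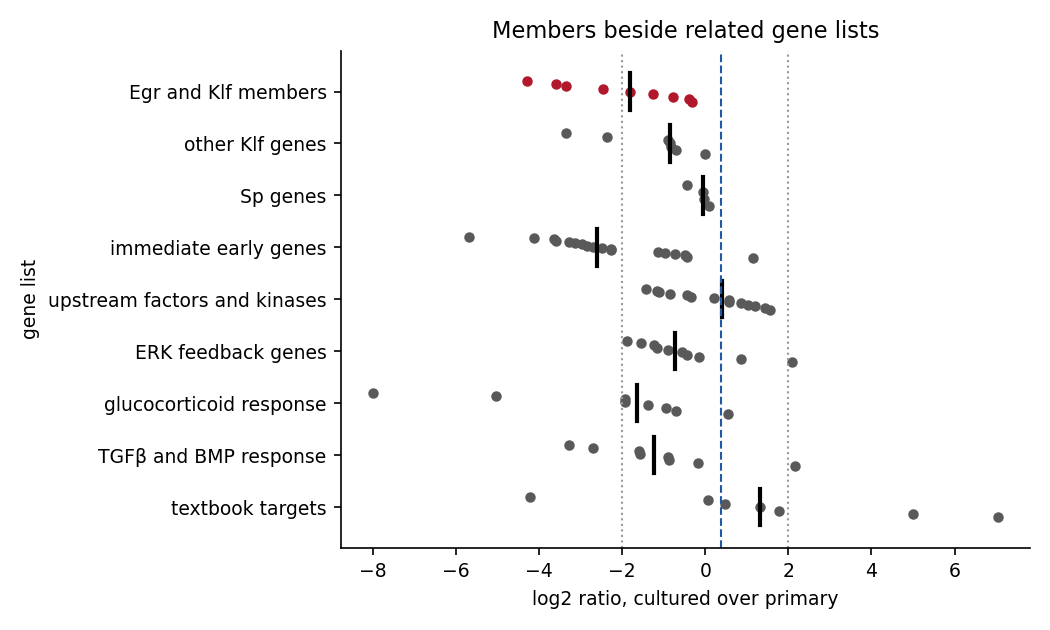
Log2 ratio of cultured over primary level (x axis) for each tested gene of the 9 members (red) and of 8 related lists (grey, 1 row each); black ticks are list medians, the dashed line is the median of all tested genes (0.37), and the dotted lines mark 4-fold. All 9 members lie left of 0, with a median of -1.81 beside -2.60 for the immediate early genes and -0.05 for the Sp genes.

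Heat shock genes and cell cycle genes also differed between the libraries. Of 10 heat shock genes 3 were at least 4-fold lower in culture, Hspa1a (276 against 3.41 CPM), Hspa1b and Dnajb1, and the summed list was at 2633 CPM in primary and 2283 CPM in cultured cells. Of 20 tested G2/M genes 13 were at least 4-fold higher in culture, with a median log2 ratio of 2.32. The part of either group of genes in the levels of the 9 factors was not tested, but values within cells of like state are given below.

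The levels were next read across the clusters of each library, made without the 9 genes and without the immediate early list. There were 9 primary and 8 cultured clusters with at least 50 cells. For 5 of 9 genes, Egr1, Egr2, Klf2, Klf4 and Klf10, every primary cluster lay above every cultured cluster, beside 13.6% of all tested genes. Egr1 ranged from 1541 to 2432 CPM over the primary and from 163 to 536 CPM over the cultured clusters. Klf10 ranged from 123 to 239 CPM over primary and from 7.05 to 17.6 CPM over cultured clusters. The lower level was therefore present in each cultured cluster of this size for these 5 genes. The clusters overlapped for Egr3, Klf5, Klf6 and Klf9. Klf6 ranged from 111 to 576 CPM over primary clusters, and all 8 cultured clusters, at 121 to 308 CPM, fell within that range. Klf9 touched only at its ends, with 287 to 627 CPM over primary and 124 to 289 CPM over cultured clusters.

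**Figure D3:**
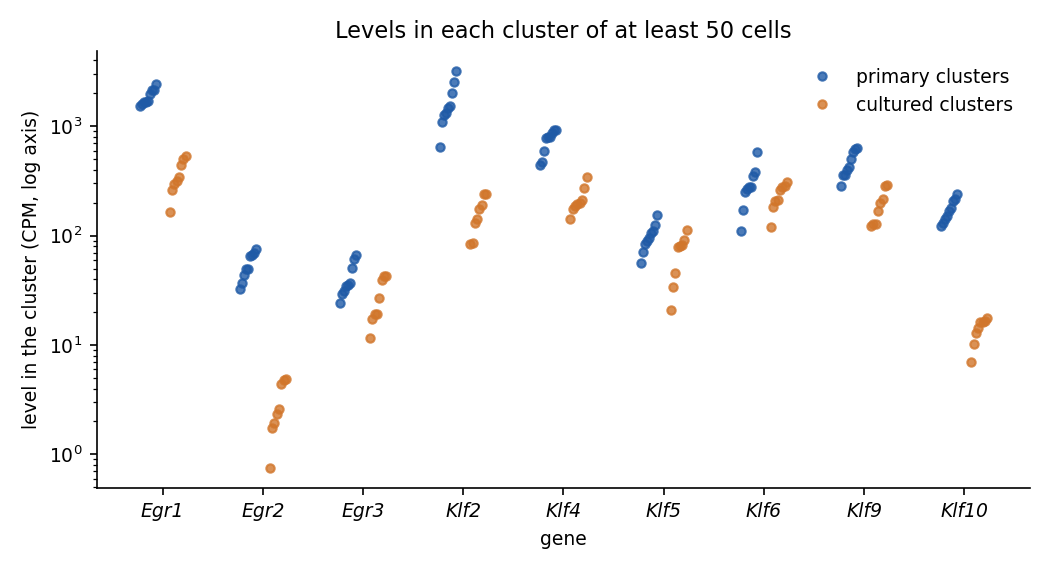
Level of each gene (y axis, CPM, log axis) in each cluster of at least 50 cells, 9 primary clusters in blue and 8 cultured clusters in orange, sorted within a gene. Blue and orange points are separate for Egr1, Egr2, Klf2, Klf4 and Klf10 and overlap for Egr3, Klf5, Klf6 and Klf9, where Klf6 spans 111 to 576 CPM in blue and 121 to 308 CPM in orange.

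Among primary clusters, 8 of the 9 were chondrocyte-like, with at least 3 chondrocyte markers at 1000 CPM or more, and held 11456 cells. This name rested on the level of the markers and not on a higher level than in the other primary cells. The remaining cluster, of 290 cells, was led by mast cell genes such as Cma1 together with Gpihbp1 of endothelium and Col1a1 of fibroblasts. Of the 9 genes, Klf2 and Klf6 varied most over the primary clusters, with a highest level 4.997 and 5.19 times the lowest. Over 2983 genes with a median cluster level of at least 50 CPM, the median of this quotient was 1.65. Both genes were highest in cluster 2, led by Tll1, Clu, Cilp2 and Prg4, the lubricin gene of superficial cartilage, with 3224 CPM of Klf2 and 576 CPM of Klf6. Both were lowest in cluster 3, led by Aoc2, Acta2 and Grem1, with 645 CPM of Klf2 and 111 CPM of Klf6. Klf4 was at 930 CPM in cluster 2 and 922 CPM in cluster 6, and at 440 CPM in cluster 3 and 469 CPM in the mixed cluster, with intervals that overlap within each of these pairs.

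The heat shock list moved with the levels of Klf2 and Klf6. Its sum was highest in cluster 2, at 4974 CPM, and lowest in cluster 3, at 1396 CPM. Cluster 5, of 1496 cells, was led by Hspa1a, Hspa1b and Hsph1, and had the second highest Klf2 level, 2522 CPM, and the second highest Klf6 level, 384 CPM. Klf4 in cluster 5 was at 788 CPM, below its level in clusters 2, 4 and 6. Its interval there overlapped those of clusters 1 and 7, at 790 and 804 CPM. Egr1 did not follow this order, with 1660 CPM in cluster 2, 1603 CPM in cluster 3 and 1698 CPM in cluster 5. Without cluster 5, but with cluster 2 and its higher heat shock sum kept, the log2 ratio of cultured over primary level was -3.27 for Klf2 and -0.26 for Klf6. The part of heat shock genes in the level of Klf2 or Klf6 over clusters was not tested.

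**Figure D4:**
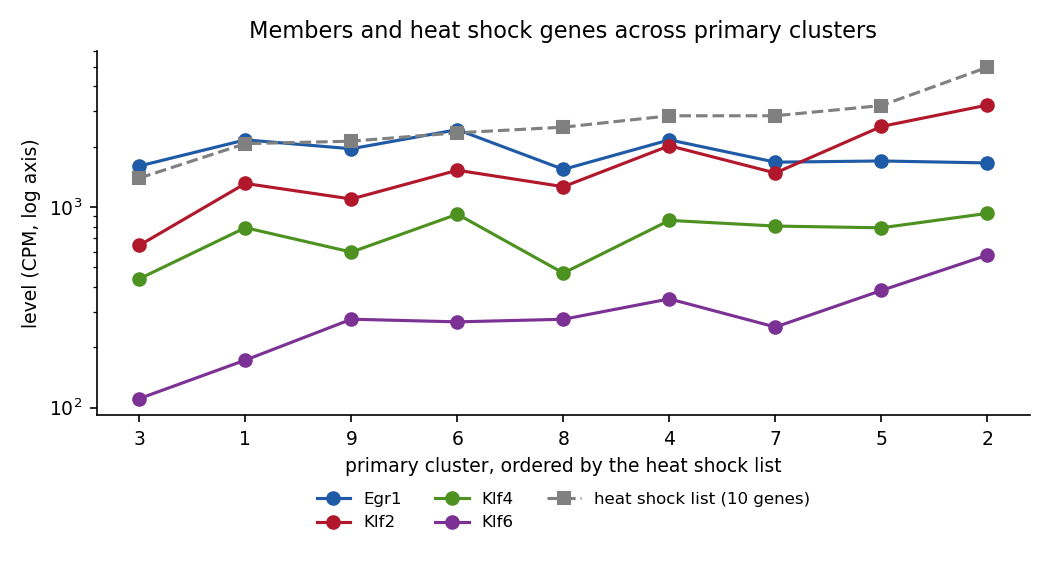
Level (y axis, CPM, log axis) of Egr1, Klf2, Klf4 and Klf6 and summed level of 10 heat shock genes (grey dashed) in the 9 primary clusters, ordered along the x axis by the heat shock sum. Klf2 runs from 645 CPM in cluster 3 to 3224 CPM in cluster 2 and Klf6 from 111 to 576 CPM between the same clusters, while Egr1 stays between 1541 and 2432 CPM.

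The Egr genes had other high points. Egr1 and Egr3 were highest in cluster 6, with Ptgs2 and F3 among its leading genes, at 2432 and 66.7 CPM. For Egr3 the interval overlapped that of cluster 4, at 61.1 CPM. Egr2 was at 75.2 CPM in cluster 9, of 187 dividing cells led by Pbk and Cenpf, and within overlapping intervals in clusters 1, 4 and 6. The lowest values of the 3 Egr genes and of Klf10 were in the mixed cluster of 290 cells, with Egr1 at 1541 CPM, Egr2 at 32.3 CPM, Egr3 at 24.3 CPM and Klf10 at 123 CPM, each with an interval that overlapped those of 1 to 3 other clusters. Klf5 was highest in cluster 1, at 156 CPM, where it was among the 10 leading genes beside Trf, Fam43a and Foxc2, and lowest in the mixed cluster, at 56.3 CPM. Klf10 was also highest in cluster 1, at 239 CPM. Klf9 was at 627 CPM in cluster 6 and 619 CPM in cluster 4, which did not differ beyond counting error, and lowest in cluster 7, led by Slc35f1 and with Runx3, Wnt5b and Ptch1 of prehypertrophic cartilage among its leading genes, at 287 CPM. Egr1 was the most even of the 9 over primary clusters, with a highest level 1.58 times its lowest.

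The mixed primary cluster held cells of other types, and clustering it again gave 168 mesenchymal fibroblast-like cells. Their Col2a1 level of 19622 CPM was well above 0, and in the 125 of them outside the deepest group it was 2805 CPM, beside 53807 CPM in chondrocyte-like cells. That restriction was made after the values were seen. Klf10 was at 88.4 CPM in all 168 cells and at 47.3 CPM in the 125, beside 184 CPM in chondrocyte-like cells. Klf5 was at 41.6 and 18.1 CPM, beside 108 CPM. Klf4 was at 359 and 238 CPM, beside 764 CPM. Egr3 was at 8.17 CPM from 11 UMIs and at 2.79 CPM from 2 UMIs, beside 45.2 CPM. Klf2, at 1340 and 1160 CPM beside 1689 CPM, and Klf6, at 275 and 255 CPM beside 283 CPM, were closer in the 2 classes. The 25 endothelial-like cells had Col2a1 at 26808 CPM, a cartilage transcript, so their Klf2 level of 1056 CPM cannot be assigned to endothelium.

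In the cultured library none of the 8 clusters was chondrocyte-like by its markers, and 7 had no name. Apart from the chondrocyte-like rule, a name needed markers at least 4-fold above the rest of the library. Markers spread evenly over the cultured cells therefore named no cluster. Egr1 was highest in cluster 6, which had Mmp13 and Comp among its leading genes, at 536 CPM. In the same cluster Klf4 was at its lowest, 141 CPM, while Klf2, at 83.4 CPM, overlapped in its interval with cluster 3, at 86.5 CPM. Egr2 and Egr3 had overlapping intervals in clusters 6, 4 and 8, with 4.93, 4.82 and 4.41 CPM of Egr2 and 42.9, 39.7 and 42.3 CPM of Egr3. Klf9 was at 289 CPM in cluster 6 and 287 CPM in cluster 2, again overlapping. Klf5 and Klf6 were highest in cluster 4, led by Gpc3 and Omd, at 112 and 308 CPM. Klf2 was at 240 CPM there and 238 CPM in cluster 8, and Klf10, at 17.6 CPM, overlapped with clusters 2, 5 and 6. Klf4 was highest in cluster 7, led by Nr5a2 and Barx1, at 346 CPM. The 836 cells of cluster 3 had a median of 1256 UMIs, far below the library's median, and the lowest levels of Egr1 (163 CPM), Egr3 (11.5 CPM) and Klf6 (121 CPM). Egr2 there rested on 3 UMIs. The mesenchymal fibroblast-like cluster, number 8, of 180 cells had the lowest Klf5, 21.1 CPM, and Klf10 at 7.05 CPM, the latter overlapping with cluster 3.

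To compare cells at equal depth, each cell was thinned to 5000 UMIs, which kept 10959 primary and 4543 cultured cells. A smaller share of cultured than of primary cells had a UMI for 8 of 9 genes, beside 34.9% of the 9115 tested genes. Egr1 was found in 99.1% of primary and 75.2% of cultured cells, Klf2 in 91.0% and 43.0%, and Klf4 in 88.3% and 54.7%. For Klf10 the shares were 53.9% and 6.76%, and for Egr2 20.1% and 1.34%. Klf9 was found in 82.9% and 57.4% of cells, Klf5 in 37.9% and 29.6%, and Egr3 in 14.7% and 12.7%. Klf6 went against its CPM, with 55.1% and 61.6%, so no order was read from it. Without thinning the shares were 98.9% and 89.4% for Egr1, 33.3% and 14.1% for Egr2, 95.7% and 75.7% for Klf2, and 73.3% and 42.4% for Klf10. Unthinned, Egr3 was found in 22.4% of primary and 53.6% of the deeper cultured cells, Klf5 in 57.1% and 72.2%, Klf4 in 93.9% and 84.8%, Klf6 in 70.3% and 85.8%, and Klf9 in 92.1% and 83.9%. Neither library held a cell type known to lack these genes, so the share that free RNA gives was not measured.

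**Figure D5:**
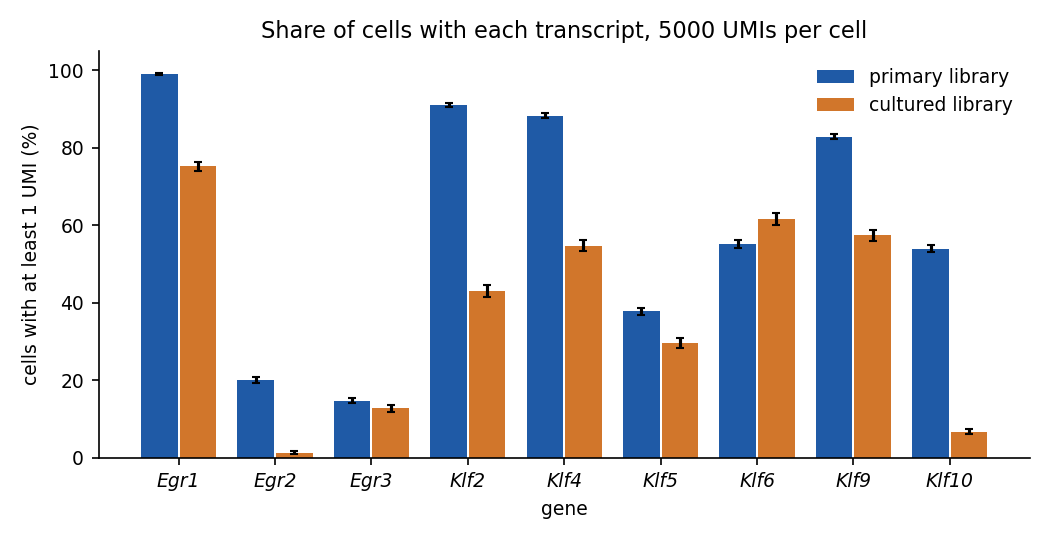
Cells in which each gene had 1 UMI or more (y axis, percent of cells) after each cell was thinned to 5000 UMIs, in the primary (blue, 10959 cells) and cultured (orange, 4543 cells) library; error bars are exact 95% binomial intervals over cells. The orange bar is lower for 8 genes, by most for Klf2 (91.0% against 43.0%) and Klf10 (53.9% against 6.76%), and higher for Klf6 (55.1% against 61.6%).

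Counted over the 9 genes, a thinned primary cell had a median of 5 and a cultured cell a median of 3 with a UMI. At least 5 of the genes were found in 77.6% of primary and 22.7% of cultured cells, and none in 5 primary and 111 cultured cells. At 5000 UMIs a primary cell held a median of 9 UMIs of Egr1 and 7 of Klf2, with at most 42 and 90. A cultured cell held a median of 2 UMIs of Egr1 and 0 of Klf2, with at most 22 and 11. At least 10 UMIs of Egr1 were found in 47.9% of primary and 0.132% of cultured cells, and at least 10 of Klf2 in 39.4% and 0.0660%. The lower Egr1 and Klf2 levels thus lay over the bulk of the cultured cells and came with few cells at the upper levels of the primary library. At like means of 9.55 and 9.77 UMIs per primary cell, Klf2 had a variance 8.93 times its mean and Egr1 2.65 times. Klf10, at a mean of 0.935 UMIs, had 1.43 times. This quotient depends on the mean, so members of unlike mean were not ranked by it.

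Depth within the primary library moved with some of the factors. When the cells were put into 4 equal groups by their UMIs, from the shallowest to the deepest, Klf2 was at 3107, 2156, 1349 and 1283 CPM. The heat shock list in the same groups was at 3837, 3074, 2282 and 2323 CPM, and Col2a1 at 37817, 48432, 57031 and 57339 CPM. Klf6 was at 433 CPM in the first and 237 CPM in the last group, and Klf4 at 974 and 668 CPM. Egr1 stayed between 1869 and 2030 CPM over these groups. In the cultured library Klf2 was between 134 and 169 CPM over the depth groups, so the lowest primary group lay above the highest cultured one. Egr1 in cultured cells was at 249, 311, 396 and 427 CPM over 4 equal groups from the lowest to the highest mitochondrial share, and Egr3 at 15.7, 20.9, 29.9 and 35.6 CPM. The corresponding primary values of Egr1 were 1947, 1972, 1951 and 1849 CPM. The parts of depth and mitochondrial share in these levels were not tested.

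Cells with at least 10 UMIs of cell cycle genes, after thinning, numbered 196 in primary and 714 in cultured CDSCs. Klf9 was at 123 CPM in such cultured cells and at 226 CPM in the others, and at 384 and 500 CPM in the primary library. Klf4, whose product can arrest the cell cycle, was at 573 and 762 CPM in the primary library and at 201 and 218 CPM in the cultured one. Egr1 was at 1933 and 1941 CPM in primary cells and at 301 and 362 CPM in cultured cells. Klf2 was at 1076.5 and 1667 CPM in primary cells and at 136 and 172 CPM in cultured cells. Klf9, Klf4 and Klf2 were thus lower in cycling cells of each library. Klf10 had like levels in both kinds of cultured cells, 16.1 and 14.9 CPM, and Egr2 in primary cells was at 76.0 CPM in cycling and 56.2 CPM in other cells. Within cells under this cell cycle level, Egr1, Egr2, Klf2 and Klf10 were still lower in culture, at 362, 2.96, 172 and 14.9 CPM beside 1941, 56.2, 1667 and 183 CPM.

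Co-variation was read as Pearson's r over cells of 1 library, thinned to 5000 UMIs, on log2(1 + UMIs). These cells share a library, so the values are descriptions. Over 10959 primary cells and 3030 genes, the genes most like Egr1 were Fos (r = 0.435), Junb (0.386) and Ier2 (0.380), which are early genes. Those most like Klf2 were Rhob (0.505), Clu (0.445) and Mgp (0.444), a small GTPase, clusterin and an inhibitor of calcification. The most alike pairs among the 9 were Klf2 with Klf6 (0.398) and Klf2 with Klf4 (0.386). Klf9 was most like Nr4a1 (0.275) and Klf10 like Fos (0.244). Klf2 had r = 0.361 with the heat shock list and -0.287 with depth, while Egr1 had 0.104 and 0.00467. With the summed immediate early list, r was 0.522 for Egr1, 0.388 for Klf2 and 0.380 for Klf4, and after Klf2 the genes most like Klf4 were Fos (0.288) and Nr4a1 (0.269).

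Over 4543 cultured cells and 3476 genes the values were smaller. Thinned cultured cells also held fewer UMIs of each member, with means of 0.799 for Klf2 and 1.01 for Klf4 beside 9.55 and 4.04 in primary cells. Fewer UMIs can lower r, so the smaller values were not read as weaker co-variation. Egr1 was most like Prkg1 (0.297), the cyclic GMP dependent kinase, then Btg2 (0.264) and Fos (0.263). Klf9 was most like Pcdh7 (0.222) and Klf2 like Myl6 (0.213). Klf6 was most like Ccn2 (0.176), Ccn1 (0.172) and Jun (0.167). Klf2 with Klf4 had 0.166 and Klf2 with Klf6 0.123. Most members gave few UMIs per thinned cultured cell, with a mean of 0.0143 for Egr2 and 0.0731 for Klf10, and nothing was read from the weak values of these sparse genes.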

How the data were processed

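Single-cell RNA sequencing of 1 primary and 1 cultured CDSC library was grouped by the treatment labels. The authors aligned reads with Cell Ranger 7.0.0 to GRCm38 and deposited raw UMI counts per gene and barcode. The submitters' processing notes also name GRCm39. The annotation release was not given in the sources used here. Barcodes were kept with at least 500 genes, 1000 UMIs and at most 10% mitochondrial UMIs. Counts were summed per library. For ratios, counts under 3 were raised to 3. Depth was 137148874 UMIs (primary) and 330129909 UMIs (cultured), so counting error was small. Scrublet (scanpy 1.11.5) called 1 and 2 doublets and had not worked, and doublets were kept. Clusters came from Leiden (leidenalg 0.10.2, resolution 0.5, 20 neighbours, 10 components, 2000 variable genes), and names from markers with at least 50 CPM, at least 3 per class, or, for chondrocyte-like clusters, at least 1000 CPM. The mixed primary cluster was clustered again with 10 neighbours at resolution 1. Intervals and thinning were tested on simulated data. Alternatives included TMM (edgeR 4.0.16) and DESeq2 1.42.0 size factors. The members and gene lists were chosen with earlier results of these data known. All 9 members are named, list genes where one library reached 10 CPM (Ptprc and Cma1, chosen after their values were seen, are exceptions), and for likeness the 3 highest r among genes with at least 50 CPM. Coordinates came from GENCODE M21, and promoters from RefSeq, where 5 of the 9 genes matched and Egr1, Egr3, Klf5 and Klf10 did not. Some genes of the lists and clusters are not reported here.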

Additional observations from a re-analysis of the deposited data

Results flagged for a closer look

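Barcodes that failed the cell filter entered no value of the comparisons above, but 1 alternative below, and still held transcripts of the 9 genes, above the level that a count of 0 allows. The 150 such primary barcodes, with a median of 1065.5 UMIs, had a summed level of 2846 CPM from 598 UMIs, beside 5544 CPM in the kept cells. The 5460 such cultured barcodes, with a median of 775 UMIs, had 1220 CPM from 7681 UMIs, beside 1294 CPM in the kept cells. In the cultured barcodes Egr1 was at 390 CPM and Klf4 at 251 CPM, and in the primary ones at 780 and 447 CPM.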

How the results depend on the processing

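Under 11 alternatives, of which leaving out the mixed primary cluster with a cultured cluster of 9 cells with macrophage genes, and leaving out dividing clusters, were chosen after seeing the data, 9 of 9 genes stayed lower in culture, and 0 of 99 values changed sign. The count of genes at least 4-fold lower was 4 in 9 alternatives and 5 with TMM or DESeq2 scaling, where the median of all tested genes was 0.16 and 0.13 in place of 0.37. Log2 ratios ranged from -2.68 to -2.33 for Egr1, from -3.69 to -3.27 for Klf2, and from -0.53 to -0.26 for Klf6, which was nearest to 0. With a gene filter at 1 CPM, 960 genes were at least 4-fold lower and 1615 higher, and with no gene filter 1939 and 2011, in place of 522 and 966. The share of cells with a UMI was smaller in culture for 9 genes at 2500 UMIs, 7 at 10000 UMIs and 6 without thinning, in place of 8. The share of all tested genes that went the same way was measured only for the thinning that gave 8. The other counts therefore have no background beside them, and without thinning the cultured cells were also deeper. No paired analysis was possible because each group was 1 library. No replicate could be left out, and depth limits Egr2 in shallow clusters and Egr3 in the fibroblast-like cells.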
